A study of Mus musculus with 8 samples.

Results

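The lineage genes of CD8+ and CD4+ T cells were followed on 8 Clariom S Mouse arrays, 1 array per sample of CD8 T cells from female mice. The list held 8 gene symbols, namely Cd8a, Cd8b1, Runx3, Cd4, Zbtb7b, Trat1, Ikzf2 and Gata3. A gene was taken where the symbol of a transcript cluster, the set of probes that the array summarises into 1 value, equalled a name on the list. This found 7 of the 8 genes among 21160 genes in all, each as a cluster of 10 probes. The cluster that holds Gata3 also names 9230102O04Rik, so it did not meet the rule, and its values are given apart as those of a shared cluster. The names were chosen by their log2 values on these same 8 arrays. The values of the 7 genes over treatments are therefore a description, with a standard error (SE) and no p per gene. Each SE is given first without and then with the culture set, defined next, as a block.

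Naive CD8+ T cells were stimulated in vitro and exposed for 48 h to a PPARα agonist, a PPARβ agonist, a PPARγ agonist or DMSO, and all samples are labelled day 2. PPARs are nuclear receptors that sense fatty acids and related lipids. For the compounds, their doses, the stimulus and the mouse strain, nothing was stated in the labels or files used here. Each of the 4 groups held 2 arrays. The titles carry 2 prefixes, and the 4 arrays that share a prefix, 1 of each group, are called a culture set here. What a prefix stands for (animal, pool or day) is not labelled. Separate animals or cultures within a group are not stated either. The p-values therefore reflect how far these arrays scatter, and some of that scatter may be technical. Values are log2 RMA values, a scale on which a difference of 1 is a doubling, and any ± beside a group mean is the SD of its arrays (n = 2). The 2 arrays of a group come from different culture sets. The SD therefore also carries any gap between the sets, which differences within a set do not.

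CD8 and CD4 are the co-receptors with which T cells recognise peptide on MHC class I and class II molecules, and both bring the kinase Lck to the T cell receptor. In the thymus the choice between them is fixed by opposing transcription factors. RUNX3 activates the CD8 genes and silences Cd4 and Zbtb7b, while the product of Zbtb7b, ThPOK, holds cells in the CD4 lineage and represses the CD8 programme. GATA3 acts upstream of ThPOK. Mature cytotoxic cells keep RUNX3, which also supports their effector genes.

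The arrays carried the transcripts of CD8 T cells in all 4 groups. All 11 markers of CD8 T cells lay above 4.89, the mean below which genes were left out of the tests. Their mean per array was 14.40 to 14.43 for PPARα, 14.38 to 14.45 for PPARβ, 14.33 to 14.38 for PPARγ and 14.40 to 14.43 for DMSO. The 11 were Cd8a, Cd8b1, Cd3d, Cd3e, Cd3g, Cd2, Cd5, Cd6, Gzmb, Prf1 and Nkg7. Cd8a and Cd8b1 are list members too, and the CD3 genes, Cd2, Cd5 and Cd6 mark T cells in general. Above that limit stood 2 of 7 B cell markers (Cd79b with a mean of 9.58 and Ebf1 with 5.15) and 2 of 9 markers of macrophages and dendritic cells (Cd68 with 8.05 and Siglech with 5.67). Of 8 markers of NK and innate-like T cells, 7 had a cluster and 2 stood above it (Cd160 with 11.12 and Zbtb16 with 5.25). Among the markers below it were Cd79a, Itgax and Ncr1, at 3.74, 3.45 and 3.31. The part of other cell types in the results was not tested. Array medians lay between 5.64 and 5.72.

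The genes of the CD8 co-receptor varied least. Cd8a, the alpha chain (chromosome 6, 71373427 to 71379171, + strand, build mm10), stood at 16.48 in culture set 1 and 16.65 in set 2 under PPARα agonist, 16.53 and 16.58 under PPARβ agonist, 16.57 and 16.73 under PPARγ agonist, and 16.69 and 16.71 in DMSO. Both DMSO arrays lay above the arrays of the PPARα and PPARβ agonists, while those of the PPARγ agonist lay on either side of them. The differences from DMSO were -0.14, -0.15 and -0.05 (SE 0.166 and 0.131), and the PPARβ difference was nearly equal in the sets, at -0.16 and -0.13. A difference of -0.15 is 0.903 times the DMSO value. In the order DMSO, PPARγ, PPARα, PPARβ, no neighbours differed by more than the larger of their 2 SDs.

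Cd8b1, the beta chain (chromosome 6, 71322812 to 71337477, + strand), stood at 17.17 and 17.24 under PPARα agonist, 17.02 and 17.27 under PPARβ agonist, 17.05 and 17.28 under PPARγ agonist, and 17.23 and 17.26 in DMSO. The groups overlapped in all 6 pairs. The lowest values were those of the PPARβ and PPARγ agonists in set 1, and the differences from DMSO were -0.03, -0.10 and -0.08 (SE 0.179 and 0.136). The 4 treatment means of Cd8a spanned 0.15 and those of Cd8b1 0.10, and 82.7 and 93.6 percent of the 12696 tested genes had a wider span, whose median was 0.27. Cd8a and Cd8b1 read high, with means of 16.62 and 17.19. The tested genes cover all levels, and the part of the level in these narrow spans was not tested.

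**Figure D1:**
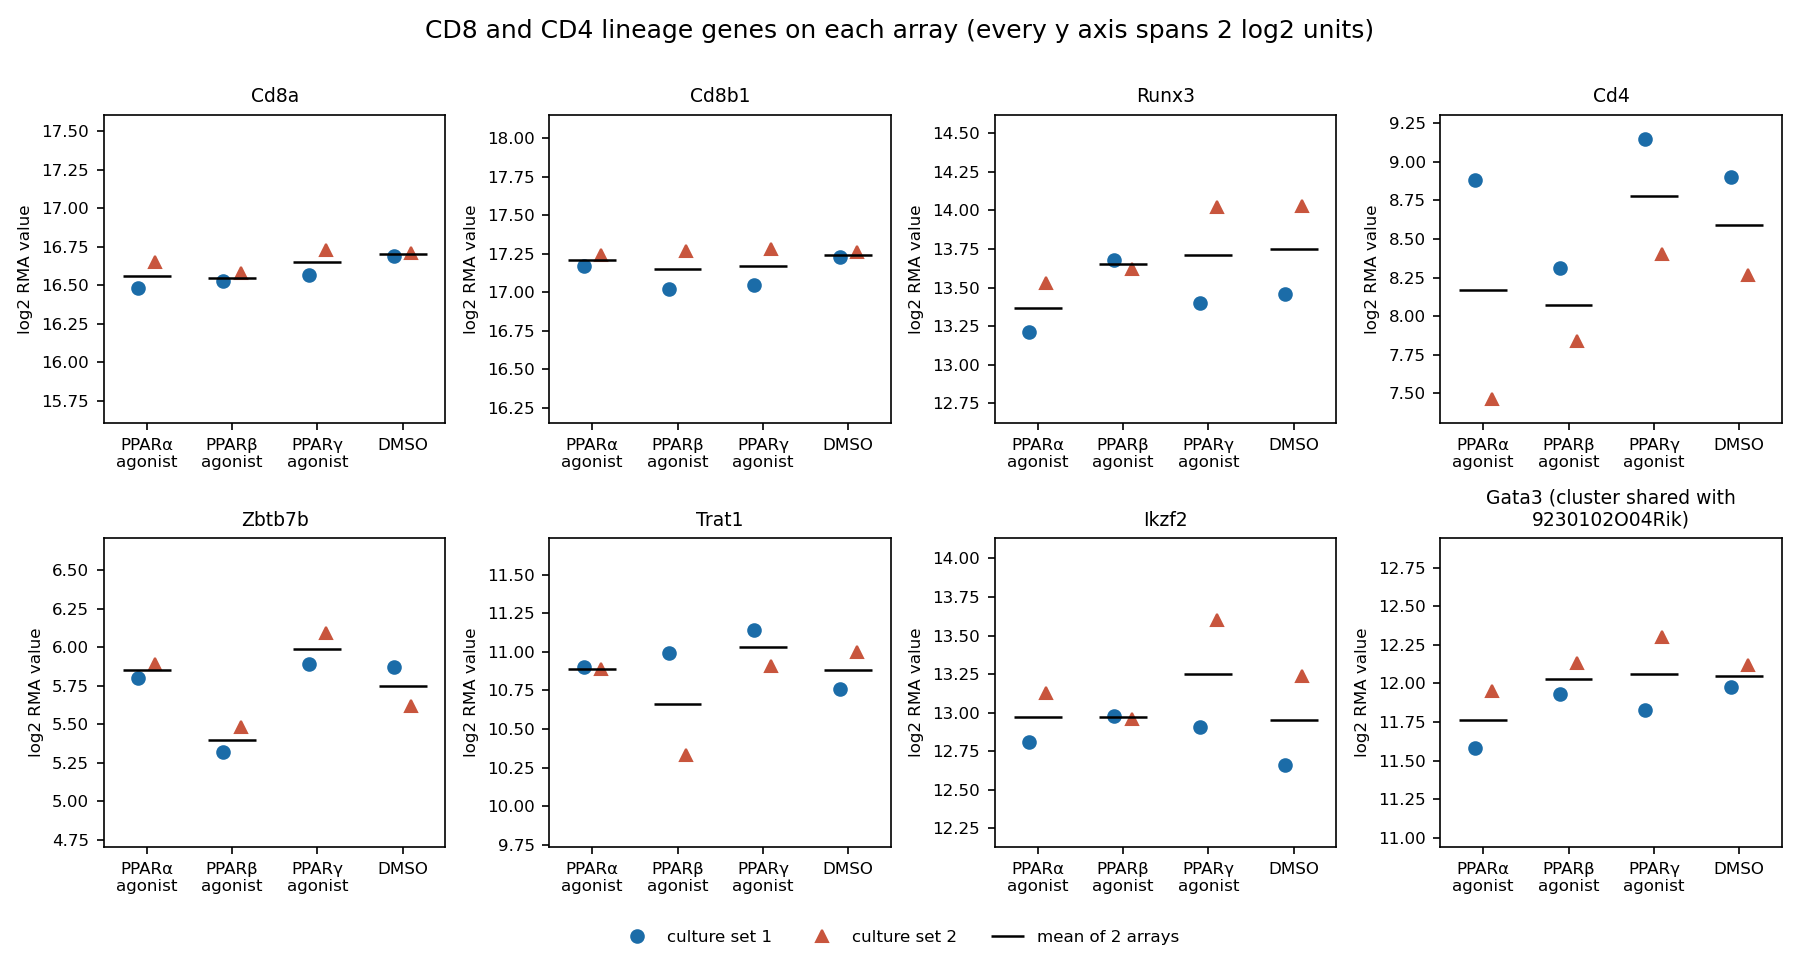
Log2 RMA value (y axis) of the 8 lineage genes by treatment (x axis), with 1 point per array, the culture set as the symbol and a bar for the mean of 2 arrays. Each y axis spans 2 log2 units, and Gata3 is the cluster shared with 9230102O04Rik. Cd8a and Cd8b1 lie nearly flat, Cd4 is lower in set 2 in each treatment, and both PPARβ arrays of Zbtb7b, at 5.32 and 5.48, lie below the other 6.

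Runx3, the transcription factor that maintains CD8 identity (chromosome 4, 135120645 to 135177990, + strand), stood at 13.21 and 13.53 under PPARα agonist and at 13.68 and 13.62 under PPARβ agonist. It stood at 13.40 and 14.02 with the PPARγ agonist and at 13.46 and 14.03 with DMSO. The PPARα arrays were the lowest of their sets, by -0.25 and -0.50 against DMSO (mean -0.37, SE 0.277 and 0.191, 0.771 times the DMSO value), yet the 2 groups overlapped because set 2 lay higher. Against DMSO the PPARβ agonist stood at 0.22 in set 1 and -0.41 in set 2, so its mean of -0.10 joins opposite signs, and the PPARγ agonist stood at -0.07 and -0.01. In the order of means DMSO, PPARγ, PPARβ, PPARα, only the last step, 0.28, was larger than the larger SD of its 2 groups, 0.23.

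The 300-base windows at the annotated starts of Runx3 and Cd8a are shown because RUNX3 can act on both genes. They come from RefSeq (GRCm38.p6), which held windows for 5 of the 8 genes, 7 in all, each with 250 bases before and 50 after the start. Capitals mark the RUNX core TGTGGT or its reverse complement ACCACA, the PPAR half-site AGGTCA or TGACCT, and the GATA motif AGATAA or TTATCT, searched on both strands.
Runx3, chr4:135120395-135120694, + strand: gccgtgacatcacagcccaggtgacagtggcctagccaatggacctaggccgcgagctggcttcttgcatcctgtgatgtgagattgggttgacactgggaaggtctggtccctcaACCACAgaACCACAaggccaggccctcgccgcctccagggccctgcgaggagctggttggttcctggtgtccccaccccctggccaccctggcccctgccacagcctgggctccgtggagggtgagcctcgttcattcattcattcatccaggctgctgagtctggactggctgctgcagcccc
Cd8a, chr6:71373177-71373476, + strand: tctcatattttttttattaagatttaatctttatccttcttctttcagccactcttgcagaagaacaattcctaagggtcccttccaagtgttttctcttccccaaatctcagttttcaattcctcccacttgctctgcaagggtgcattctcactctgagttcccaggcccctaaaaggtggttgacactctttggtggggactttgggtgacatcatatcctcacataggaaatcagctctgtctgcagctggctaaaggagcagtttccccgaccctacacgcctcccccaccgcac
The Runx3 window held 2 RUNX core matches on the reverse strand, starting at positions -134 and -126 from the annotated start. The Cd8a window held no match to these 3 motifs, and neither did the second Runx3 window, 1 of the 2 Zbtb7b windows or the Gata3 window. Of the 32851 windows in the table, 16.8 percent held the RUNX core, 16.3 percent the PPAR half-site and 11.2 percent the GATA motif. A match describes the letters alone, and the absence of one says nothing about binding of the factor elsewhere. The array has a single value for Runx3 and does not separate transcripts of its 2 starts.

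Cd4 showed the widest spread of the 7 genes. The co-receptor gene of helper cells (chromosome 6, 124864692 to 124888221, - strand) stood at 8.88 and 7.46 under PPARα agonist, 8.31 and 7.84 under PPARβ agonist, 9.15 and 8.40 under PPARγ agonist, and 8.90 and 8.27 in DMSO. The group means were 8.17 ± 1.01, 8.07 ± 0.33, 8.78 ± 0.53 and 8.59 ± 0.45 in that order. Set 1 exceeded set 2 in each treatment, by 1.43, 0.47, 0.75 and 0.63 in the same order (mean 0.82). A larger mean difference between the sets was found for 3.1 percent of tested genes, and 20.6 percent had set 1 above set 2 in all 4 treatments. On bulk arrays, fewer CD4-bearing cells and less Cd4 RNA per cell cannot be told apart.

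Within the sets, Cd4 was lower with the PPARβ agonist than with DMSO by -0.60 and -0.43 (mean -0.51, SE 0.481 and 0.229, 0.70 times the DMSO value). With the PPARγ agonist it was higher, by 0.25 and 0.13 (mean 0.19), which turned to -0.18 without the PPARγ array of set 1. The PPARα difference was -0.02 in set 1 and -0.81 in set 2, so its mean of -0.42 rests on set 2 and turned to 0.30 without the PPARα array of that set. Leaving out 1 array unbalances the sets, so both turns also carry the gap of Cd4 between the sets. All 3 groups overlapped DMSO. The PPARβ and PPARγ arrays did not overlap (8.31 and 7.84 against 9.15 and 8.40, difference -0.71). In the order PPARγ, DMSO, PPARα, PPARβ, no neighbouring means differed by more than the larger SD, which reached 1.01 for the PPARα agonist. That SD carries the gap of 1.43 between its 2 sets, so it does not measure the scatter of differences within sets.

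**Figure D2:**
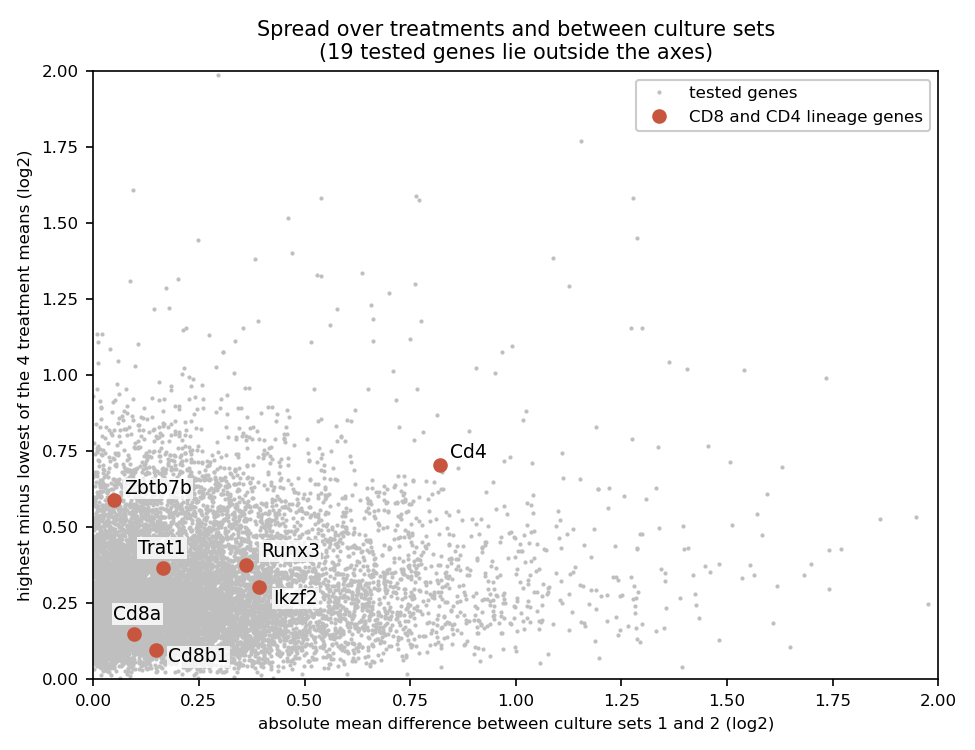
Each grey point is 1 of 12696 tested genes, with the absolute mean difference between culture sets on the x axis and the span of the 4 treatment means on the y axis, both in log2 units. Of the 7 lineage genes in orange, Cd4 lies far out on both axes (0.82 and 0.71), Zbtb7b on the treatment axis alone (0.59), and Cd8a and Cd8b1 near the origin; 19 tested genes fall outside the axes.

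Zbtb7b, which encodes ThPOK (chromosome 3, 89377644 to 89394776, - strand), had values little above the 4.89 limit for testing. It stood at 5.80 and 5.89 under PPARα agonist, 5.32 and 5.48 under PPARβ agonist, 5.89 and 6.09 under PPARγ agonist, and 5.87 and 5.62 in DMSO. The group means were 5.85 ± 0.06, 5.40 ± 0.12, 5.99 ± 0.14 and 5.75 ± 0.18 in that order. Both PPARβ arrays were below the other 6, a position shared by 2.78 percent of the tested genes. The PPARβ agonist differed from DMSO by -0.55 and -0.14 (mean -0.35, SE 0.182 and 0.158, 0.787 times the DMSO value). It differed from the PPARα agonist by -0.48 and -0.41 (mean -0.45) and from the PPARγ agonist by -0.57 and -0.61 (mean -0.59, 0.665 times the PPARγ value). The PPARγ arrays lay above both DMSO arrays, by 0.02 and 0.47 within the sets. In the order PPARγ, PPARα, DMSO, PPARβ, the gap of 0.35 between DMSO and the PPARβ agonist exceeded the larger SD of 0.18, the gap of 0.10 between the PPARα agonist and DMSO did not, and that of 0.14 between the PPARγ and PPARα agonists was about equal to the larger SD. The treatment means spanned 0.59, and 7.1 percent of tested genes had a wider span.

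Trat1 encodes an adaptor in the membrane that associates with the T cell receptor complex (chromosome 16, 48731910 to 48771956, - strand). It stood at 10.90 and 10.89 under PPARα agonist, 10.99 and 10.33 under PPARβ agonist, 11.14 and 10.91 under PPARγ agonist, and 10.76 and 11.0 in DMSO. The lowest array was that of the PPARβ agonist in set 2. The differences from DMSO took opposite signs in the sets for all 3 agonists, at 0.14 and -0.12 with PPARα, 0.24 and -0.67 with PPARβ, and 0.39 and -0.10 with PPARγ (SE 0.244 and 0.216). No neighbours in the order of means, PPARγ, PPARα, DMSO, PPARβ, differed by more than the larger SD.

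The RefSeq window of Trat1 is shown because it was the only one of the 7 with a match to the PPAR half-site.
Trat1, chr16:48772013-48772312, - strand: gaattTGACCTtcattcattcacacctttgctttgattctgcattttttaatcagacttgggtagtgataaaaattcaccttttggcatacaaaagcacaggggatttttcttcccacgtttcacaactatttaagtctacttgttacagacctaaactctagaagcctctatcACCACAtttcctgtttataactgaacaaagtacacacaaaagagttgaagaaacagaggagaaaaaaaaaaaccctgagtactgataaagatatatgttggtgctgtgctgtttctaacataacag
The half-site, as TGACCT, began at position -245 from the annotated start, and 1 RUNX core match, as ACCACA, at position -76. One of the 2 Zbtb7b windows held the RUNX core as well, at position -89. No match overlapped another in these windows.

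Ikzf2 encodes Helios, an Ikaros family factor of regulatory T cells that some CD8+ T cells also make (chromosome 1, 69531207 to 69687140, - strand). It stood at 12.81 and 13.13 under PPARα agonist, 12.98 and 12.96 under PPARβ agonist, 12.91 and 13.60 under PPARγ agonist, and 12.66 and 13.24 in DMSO. The PPARγ arrays were above DMSO in both sets, by 0.24 and 0.36 (mean 0.30, SE 0.288 and 0.191, 1.23 times the DMSO value), but the groups overlapped. Without the PPARγ array of set 2, which leaves the sets unbalanced, the difference turned to -0.045. The PPARα and PPARβ means were each 0.02 above DMSO and joined opposite signs. In the order PPARγ, PPARα, PPARβ, DMSO no step exceeded the larger SD.

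The cluster shared by Gata3 and 9230102O04Rik (chromosome 2, 9857078 to 9890034, - strand) stood at 11.58 and 11.95 under PPARα agonist, 11.93 and 12.13 under PPARβ agonist, 11.83 and 12.30 under PPARγ agonist, and 11.98 and 12.12 in DMSO. The PPARα arrays were the lowest of both sets, at -0.41 and -0.17 against DMSO (mean -0.29, SE 0.227 and 0.145), as for Runx3. How much of this value comes from Gata3 itself cannot be told apart.

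**Figure D3:**
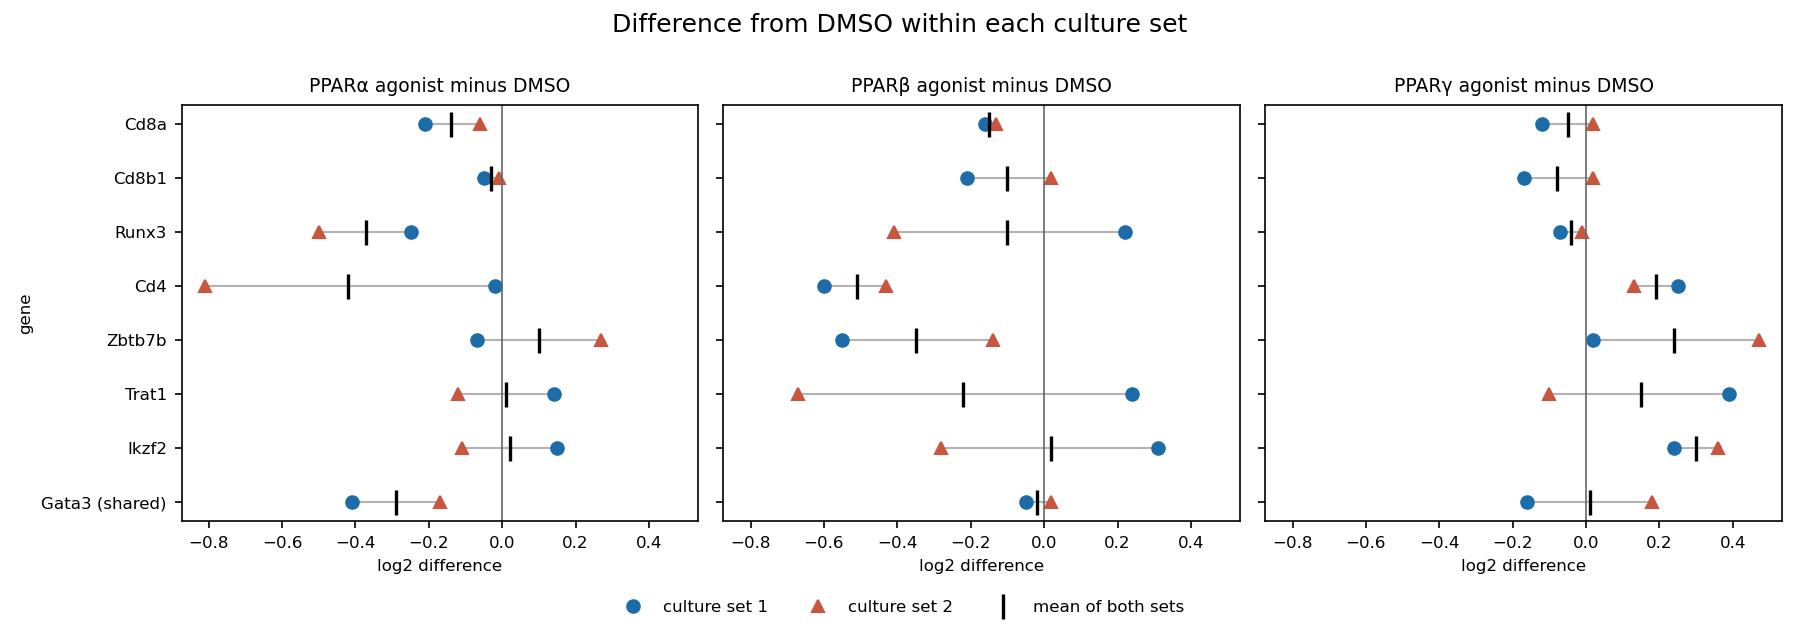
Log2 difference from DMSO (x axis) of each lineage gene (rows), with 1 symbol per culture set and a tick for the mean of both sets. With the PPARβ agonist Cd8a, Cd4 and Zbtb7b lie below 0 in both sets, with the PPARγ agonist Cd4, Zbtb7b and Ikzf2 lie above 0 in both sets, and Trat1 has opposite signs in the sets with each agonist.

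Side by side, Cd8a, Cd8b1, Runx3 and Cd4 were lower in both sets with the PPARα agonist than with DMSO (4 of 7, against 30.2 percent of all tested genes). With the PPARβ agonist these were Cd8a, Cd4 and Zbtb7b (3 of 7, against 26.7 percent). With the PPARγ agonist Cd4, Zbtb7b and Ikzf2 were higher in both sets (3 of 7, against 24.5 percent) and Runx3 was lower (1 of 7, against 26.6 percent). These 3 comparisons share the DMSO arrays. Some of the signs rest on very small differences. With PPARα, Cd8b1 stood at -0.05 and -0.01 in the sets and Cd4 at -0.02 in set 1. With PPARγ, Zbtb7b stood at 0.02 in set 1 and Runx3 at -0.01 in set 2. Centring each array on its median moved the Cd8b1 mean with PPARα from -0.033 to 0.001. Of all tested genes, 53.5, 50.4 and 51.1 percent had the same sign in both sets, against 4, 3 and 4 of the 7 genes. The median difference over the 7 genes was -0.03 with PPARα, -0.15 with PPARβ and 0.15 with PPARγ, and over all tested genes -0.018, -0.011 and -0.011. The median absolute difference was 0.10, 0.15 and 0.15, against 0.12, 0.12 and 0.13 over all tested genes.

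limma called 0 of the 7 genes at an adjusted p under 0.05 in any of the 6 pairs of groups, with or without culture set as a block. Its calls over all 12696 genes made up 0.0 percent with PPARα, 0.00788 percent with PPARβ and 0.0 percent with PPARγ against DMSO. With the block the calls against DMSO made up 0.0, 0.0236 and 0.0 percent. Without it they made up 0.00788 percent for PPARβ against PPARα, 0.00788 percent for PPARβ against PPARγ and 0.0 percent for PPARγ against PPARα, and with it 0.0158, 0.0158 and 0.0 percent. The members' counts are given beside these shares as a description, since the same arrays chose the names. At an unadjusted p under 0.05 limma placed 0 of 7 genes in each comparison with DMSO, where it placed 1.77, 2.35 and 2.17 percent of all genes. It placed 1 for PPARβ against PPARα (2.32 percent of all genes), 1 for PPARβ against PPARγ (2.65 percent) and 0 for PPARγ against PPARα (2.01 percent). With the block these unadjusted counts were 0, 0 and 0 against DMSO (4.86, 6.13 and 5.84 percent of all genes), and 1, 2 and 1 between the agonists (5.91, 7.07 and 5.69 percent). Groups did not overlap for 1 gene with PPARα (Cd8a), 2 with PPARβ (Cd8a and Zbtb7b) and 1 with PPARγ (Zbtb7b) against DMSO, where 24.1, 23.7 and 24.0 percent of all tested genes did not overlap.

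Between the agonists, the 7 genes were all lower with the PPARβ than with the PPARγ agonist, from -0.71 for Cd4 to -0.02 for Cd8b1, and 5 of them were lower in both sets (25.9 percent of all tested genes). The arrays of the 2 groups did not overlap for Cd4 and Zbtb7b, nor did they for 24.8 percent of all tested genes. For PPARγ against PPARα, 6 of 7 genes were higher, all 6 in both sets (26.0 percent of all tested genes), led by Cd4 at 0.61 and Runx3 at 0.34. Within sets 1 and 2 the Cd4 difference was 0.269 and 0.945. Without the PPARα array of set 2 the Cd4 difference turned to -0.11, and without the PPARα array of set 1 it was 1.32. Without the PPARγ array of set 2 the Runx3 difference was 0.03, and that of Ikzf2 turned to -0.06 from a value of 0.28. Leaving out 1 array unbalances the sets, so these shifts also carry the gap of each gene between the sets. Trat1 alone did not overlap (23.8 percent of all tested genes). These 2 comparisons share the PPARγ arrays, and the direction of each member was known when the list was drawn up. For PPARβ against PPARα, Runx3 was higher (0.28) and Zbtb7b lower (-0.45) without overlap, where 24.1 percent of all tested genes did not overlap.

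With the mean of each culture set subtracted, Pearson's r over the 8 arrays was above 0 in 17 of the 21 pairs of the 7 genes and below 0 in 4, with a range of -0.45 to 0.68. It was 0.37 for Cd8a and Cd8b1, 0.54 for Cd4 and Zbtb7b, and -0.17 for the opposed factors Runx3 and Zbtb7b. It was 0.68 for Trat1 and Ikzf2, 0.65 for Runx3 and Ikzf2, and -0.45 for Cd8b1 and Trat1. The 8 arrays cover only 2 title prefixes and 4 treatments, so these values describe these arrays alone.

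The same measure was used to find the genes most like each member among 5348 genes whose centred values spanned at least 0.5. The closest to Cd8a were Stxbp4 (r = 0.975) and Fchsd1 (0.950), to Cd8b1 Duoxa1 (0.957) and Ager (0.953), and to Runx3 Polg2 (0.944) and Wdr7 (0.941). The closest to Cd4 were Ccdc69 (0.989) and Sfxn4 (0.970), and to Zbtb7b Pramel4 (0.978) and Nr1i2 (0.956). Ccdc69 stood at 8.37 and 8.40 with the PPARα agonist, 7.92 and 8.59 with PPARβ, 8.53 and 8.93 with PPARγ, and 8.33 and 8.84 with DMSO, so it lacked the higher set 1 of Cd4. The closest to Trat1 were Msl2 (0.976) and Bdp1 (0.951), and to Ikzf2 Rab11fip2 (0.973) and Kbtbd2 (0.972). Between 0.22 and 1.16 percent of the 5348 genes exceeded an r of 0.9 with a given member, and an r of this size over 8 arrays is no sign of shared control.

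Other genes of the lineage decision were taken from 5 lists by textbook role, 80 genes in all, of which 64 had a cluster of their own and passed the filter. limma called 0 of the 64 higher and 0 lower in each of the 6 pairs, with 0 also with culture set as a block. At an unadjusted p under 0.05 there were 0, 1 and 0 of them with PPARα, PPARβ and PPARγ against DMSO (0.0, 1.56 and 0.0 percent, against 1.77, 2.35 and 2.17 percent of all tested genes). With the block there were 2, 3 and 1 of the 64, where 4.86, 6.13 and 5.84 percent of all tested genes passed. There were 3 for PPARβ against PPARα (4.69 percent, against 2.32), 2 for PPARβ against PPARγ (3.12 percent, against 2.65) and 0 for PPARγ against PPARα (0.0 percent, against 2.01). With the block these were 6, 3 and 1 of the 64, where 5.91, 7.07 and 5.69 percent of all tested genes passed. The list of RUNX partners and relatives (Cbfb, the Tle co-repressors and others, 8 tested) had medians of -0.03, -0.11 and 0.01 against DMSO in the same order, and that of transmembrane adaptors and co-receptor kinase (10 tested) -0.05, -0.06 and -0.10. No member of these 2 lists differed from DMSO by 0.3 or more in each set in the same direction. Cbfa2t2, a co-repressor of the ETO family named after its values were seen, came closest, at -0.59 and -0.27 with PPARα (mean -0.43) and -0.17 and -0.71 with PPARγ (mean -0.44), and its arrays did not overlap DMSO in either (limma adjusted p = 1 each). The 23 tested lineage choice regulators had medians of -0.08, -0.06 and 0.00, the 7 of the Ikaros and GATA family -0.08, -0.03 and -0.02, and the 16 helper and regulatory genes 0.02, -0.02 and -0.02.

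**Figure D4:**
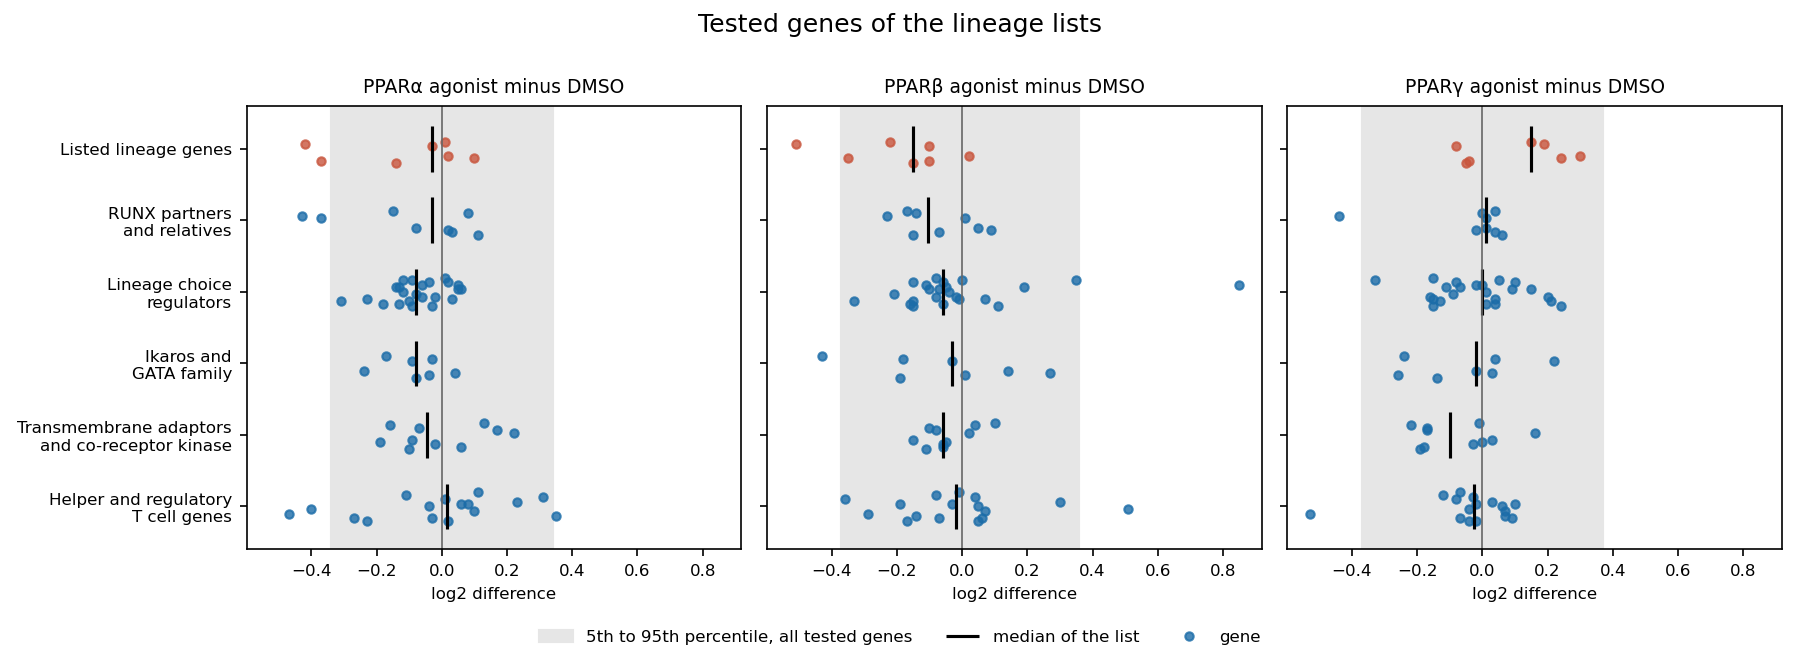
Log2 difference from DMSO (x axis) of the tested genes of each list (rows), with 1 point per gene (orange for the 7 members, blue for the other lists), a bar for the median of the list and, in grey, the 5th to 95th percentile of all tested genes (-0.37 to 0.36 with the PPARβ agonist). List medians lie between -0.15 and 0.15, and the point farthest to the right, at 0.85 with the PPARβ agonist, is Tbx21.

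Tbx21, which encodes T-bet, a factor of effector CD8+ cells, stood at 9.50 and 9.59 with the PPARβ agonist, against 8.51 and 8.89 with DMSO. The PPARβ arrays also lay above those of the PPARα (8.55 and 8.94) and PPARγ (8.70 in both sets) agonists, a position above the other 6 arrays shared by 2.39 percent of the tested genes. The difference from DMSO was 0.85 (0.99 and 0.70 in the sets, SE 0.211 and 0.158), with a limma adjusted p of 1 over all genes and 0.582 with the block. Without the block it was the 1 unadjusted hit against DMSO among the 64 genes. These leave out shared clusters such as that of Foxp3, given below. Eomes, the related factor of memory cells, stood at 10.57 and 10.08 with the PPARβ agonist, against 10.98 and 10.34 with DMSO (difference -0.33, limma adjusted p = 1), and overlapped it. Socs1, an inhibitor of cytokine signalling, stood at 0.35 and Gata4, a factor of heart and gut near the lower limit, at -0.43 with the PPARβ agonist (limma adjusted p = 1 each).

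Among helper and regulatory genes, the cluster shared by Foxp3, the regulatory T cell factor, and Ppp1r3fos stood at 7.46 and 8.04 under PPARα agonist, 7.57 and 7.53 under PPARβ agonist, 8.0 and 7.93 under PPARγ agonist, and 8.26 and 8.27 in DMSO. Both DMSO arrays lay above the other 6, a position shared by 2.53 percent of the tested genes. The differences from DMSO were -0.52, -0.72 and -0.30 (SE 0.214 and 0.188, limma adjusted p = 1 each; 0.988, 0.719 and 0.856 with the block). Cd40lg, the CD40 ligand of helper cells, stood at 6.29 and 5.60, 6.61 and 5.40, and 6.24 and 6.03 with the 3 agonists in the same order, and at 6.52 and 5.83 with DMSO. Its groups overlapped (differences -0.23, -0.17 and -0.04, limma adjusted p = 1 each).

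Cd4 was not alone in its gap between the culture sets. Of the 16 tested helper and regulatory genes, 9 were higher in set 1 in each treatment, where 20.6 percent of all tested genes were, and 3 were lower in each. Among the 9, the mean gap was 2.06 for Ccr4, 1.86 for Ccr6, 1.65 for Tnfrsf4, 1.56 for Ccr8, 0.82 for Il2ra, 0.72 for Lrrc32, 0.70 for Cd40lg and 0.66 for Tnfrsf18, beside 0.82 for Cd4. The DMSO arrays of Ccr4, for example, read 10.64 (set 1) and 8.54 (set 2). Such gaps were not confined to helper and regulatory genes. Of the 11 CD8 T cell markers, 2 were higher in set 1 in each treatment (Gzmb by 0.72 and Cd5 by 0.26) and 5 were lower in each. Of the 23 tested lineage choice regulators, 5 were higher in each, led by Eomes at 0.45, and 4 were lower in each. What the gap stands for was not tested.

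The 4 markers of helper and regulatory cells (Cd4, Zbtb7b, Cd40lg and the Foxp3 cluster) were all above the limit of 4.89. Of the longer list of helper and regulatory genes, 16 of 25 were tested and 7 with a cluster of their own lay below the limit, namely Il4, Il13, Il17a, Il21, Maf, Il1rl1 and Ptgdr2. The mean of the 4 markers per array was 6.74 to 7.11 for PPARα, 6.56 to 6.95 for PPARβ, 7.11 to 7.32 for PPARγ, and 7.0 to 7.39 with DMSO. The share of CD4-bearing cells in the samples was not measured, and its part in these values was not tested. Of the receptors of helper cells, Ccr6 stood at -0.47 with PPARα (-0.63 and -0.3 in the sets) and -0.53 with PPARγ (-0.54 and -0.51). Ccr4 stood at -0.36 with PPARβ (-0.38 and -0.35). The gap of each of these genes between the sets was larger, but it drops out of differences taken within a set. Lrrc32, a surface protein of regulatory cells, stood at -0.40 with PPARα (-0.42 and -0.39) and 0.51 with PPARβ (0.59 and 0.43). For each of these 5 differences limma adjusted p = 1, and 0.748 to 0.986 with the block.

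**Figure D5:**
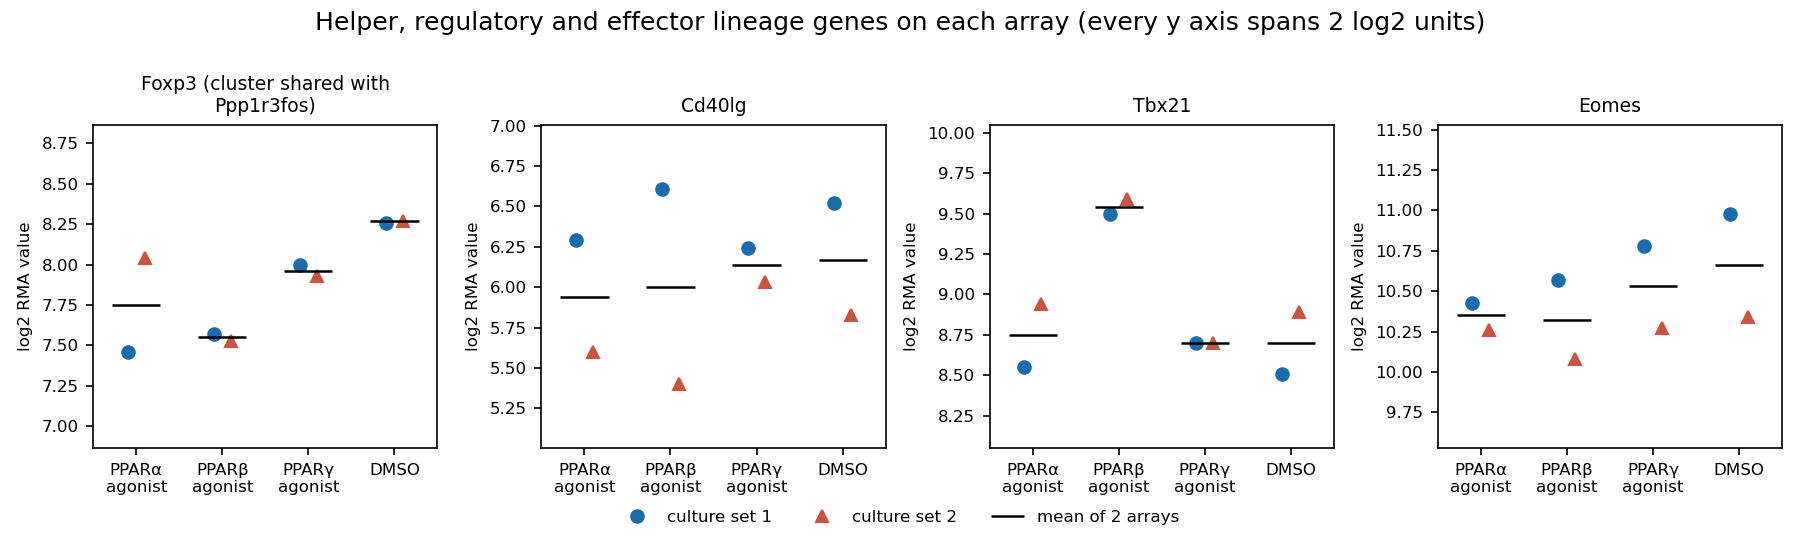
Log2 RMA value (y axis) by treatment (x axis) of the Foxp3 cluster, Cd40lg, Tbx21 and Eomes, with 1 point per array, the culture set as the symbol and a bar for the mean of 2 arrays. Each y axis spans 2 log2 units. Both DMSO arrays of the Foxp3 cluster (8.26 and 8.27) and both PPARβ arrays of Tbx21 (9.50 and 9.59) lie above the other 6 arrays, and Cd40lg is higher in set 1 in each treatment.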

How the data were processed

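The authors deposited log2 RMA expression values of 8 arrays, made in Expression Console per the labels, from biotin-labelled DNA prepared from 100 ng of total RNA. RMA corrects background, makes the arrays' distributions alike and summarises probes, so a shift shared by most genes is removed. The annotation is release na36 on build mm10, per the file headers. The deposited linear intensity columns equalled the log2 columns to 1.5e-06 after log2 and were not tested. The value matrix differed by at most 5.0e-07. The number of arrays limits the precision.

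Of 22206 clusters, 21371 name 1 gene. Symbols were updated by Entrez ID through a RefSeq table of GRCm38.p6 (20395 matched, 899 updated). The cluster with the highest mean stood for a gene with several. Genes with a mean of at least 4.89, the 40th percentile, were tested (12696). A linear model with 1 mean per group was run on these genes in limma 3.58.1 (R 4.3.3), using lmFit and then eBayes on all 6 contrasts. It had 4 residual degrees of freedom and a prior of 3.754. Tests were two-sided, with p adjusted by Benjamini-Hochberg across the tested genes. Shared clusters above the limit were fitted together with these genes. Python 3.11.15, pandas 2.3.3, numpy 2.4.6 and matplotlib 3.10.9 made tables and plots. The fit was tested on simulated data.

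Culture set (title prefix) as a replicate block was an alternative. Over the tested genes, set differences of any 2 groups correlated at 0.496 to 0.550, so the sets were taken to pair the arrays. The other alternatives were the filter, the prior, the choice of cluster, the value matrix, centring and leaving out each array.

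The members and lists were chosen with earlier results of these data known. Named from the lists were up to 4 genes each, called in either fit or at least 0.3 from DMSO in the same direction in both sets, with Foxp3, Cd40lg, Tbx21 and Eomes. Of the members, the 2 genes with the highest r were named, leaving out predicted genes and receptor families.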

Additional observations from a re-analysis of the deposited data

How the results depend on the processing

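The count of 0 called lineage genes held under every alternative that was run, both for the 7 members and for the 64 genes of the other lists, with culture set as a replicate block, with no filter, with the filter at the 60th percentile, with an intensity trend and robust prior, with the mean of a gene's clusters, with the value matrix and without each array in turn. The filter at the 60th percentile, a mean of 7.17, leaves out Zbtb7b. Over all genes limma called 1 gene, Rhob, for PPARβ against DMSO, PPARα and PPARγ alike, named after its values were seen. With the block it called 3, 2 and 2 genes, with the filter at the 60th percentile 0 in each, and without 1 array 0 to 1, 0 and 0 to 2 (2 without the PPARγ array of set 1). The other pairs had 0 calls under all of these. Of the 42 differences of the members, 18 had opposite signs in the culture sets and 25 turned sign when some array was left out, which unbalances the sets. Centring each array on its median turned 1, Cd8b1 with PPARα against DMSO, and shifted the medians of the differences by -0.034 to 0.023. With 2 arrays a group, the SEs of the members' differences lay between 0.166 and 0.481, and between 0.131 and 0.229 with culture set as a block.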
